A study of Mus musculus with 3 samples.

Results

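The regions described here are peaks of trimethylated lysine 4 of histone H3 (H3K4me3) that lie over the start of a gene in NE4C cells. A peak was taken if it contained the annotated start of at least 1 protein-coding gene and was shorter than 4000 bp, and 1010 of the 19339 H3K4me3 peaks met this rule (5.22%, 95% Wilson interval 4.92 to 5.55%). They are called start peaks below. NE4C is an established mouse neural stem cell line, derived from the embryonic forebrain of mice lacking p53. The study immunoprecipitated chromatin with an antibody to H3K4me3, with an antibody to homocysteinylated lysine in general (KHcy) and with an antibody to homocysteinylated lysine 79 of histone H3 (H3K79Hcy), each in 1 library, and the sample labels name no treatment. With 1 library per antibody there are no replicates, an antibody and its library cannot be told apart, and no p-value was computed. The intervals given cover counting error only.

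H3K4me3 is placed on the nucleosomes that flank the start sites of active and poised genes by the SET1 and MLL methyltransferases, which are drawn to unmethylated CpG islands through CXXC-domain proteins. The start site itself is often depleted of nucleosomes, so that the mark is usually strongest on the first nucleosomes downstream. Many mammalian promoters are shared by a pair of genes that are read in opposite directions from 1 CpG island. Lysine homocysteinylation is a modification in which homocysteine thiolactone, a reactive metabolite of homocysteine, becomes attached to the side chain of lysine.

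The DNA at the gene starts of 5 start peaks is shown because they stand for the kinds described below. Each sequence runs 5′ to 3′ on the strand of the gene named, from 250 bases before the annotated start through the first 50 bases of the gene, and was read from mm9. Capitals mark matches to the short promoter motifs whose frequencies are given further on. The first 2 are 2-gene promoters, in which the start of the partner gene lies inside the printed window. Aurka (minus strand, chr2:172195986-172196285), the mitotic kinase Aurora A, shares its window with Cstf1, a subunit of the cleavage stimulation factor of mRNA 3′ ends. Sdhd (minus strand, chr9:50411905-50412204), a membrane anchor of succinate dehydrogenase, shares its window with Timm8b, a chaperone of mitochondrial import.
Aurka: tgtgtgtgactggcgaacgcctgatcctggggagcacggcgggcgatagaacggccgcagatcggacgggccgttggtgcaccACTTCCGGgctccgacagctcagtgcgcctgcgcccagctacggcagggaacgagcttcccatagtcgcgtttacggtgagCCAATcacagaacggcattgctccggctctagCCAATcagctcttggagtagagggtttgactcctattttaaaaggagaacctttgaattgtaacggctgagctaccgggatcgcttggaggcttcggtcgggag
Sdhd: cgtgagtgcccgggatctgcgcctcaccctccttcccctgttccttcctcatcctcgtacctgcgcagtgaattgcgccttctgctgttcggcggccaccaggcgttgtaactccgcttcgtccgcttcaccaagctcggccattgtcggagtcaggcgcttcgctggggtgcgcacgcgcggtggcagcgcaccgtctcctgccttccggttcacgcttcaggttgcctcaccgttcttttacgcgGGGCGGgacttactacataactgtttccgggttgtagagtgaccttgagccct

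The other 3 come from start peaks that contain 1 gene start. Ddx47 (plus strand, chr6:134961380-134961679) encodes an RNA helicase, and Mybbp1a (plus strand, chr11:72254607-72254906) encodes a nucleolar Myb-binding protein. Both peaks are among the 10 over named genes with the most reads per 200 bp, and none of their words of 31 bases is repeated in the genome. Gm10801 (plus strand, chr2:98502144-98502443), a predicted gene, lies in the start peak with the most reads per 200 bp of all. It is shown for contrast. Its 300 bases hold 4 CpG and are 35.0% GC, against 26 CpG and 59.3% GC for Aurka, 29 CpG and 62% for Sdhd, 15 CpG and 55.0% for Ddx47 and 18 CpG and 57.7% for Mybbp1a.
Ddx47: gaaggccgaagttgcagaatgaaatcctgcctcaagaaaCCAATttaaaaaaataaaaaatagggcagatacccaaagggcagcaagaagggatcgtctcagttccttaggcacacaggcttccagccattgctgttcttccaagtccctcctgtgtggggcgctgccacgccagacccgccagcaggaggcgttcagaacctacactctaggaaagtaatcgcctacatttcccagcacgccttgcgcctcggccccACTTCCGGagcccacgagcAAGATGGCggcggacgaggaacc
Mybbp1a: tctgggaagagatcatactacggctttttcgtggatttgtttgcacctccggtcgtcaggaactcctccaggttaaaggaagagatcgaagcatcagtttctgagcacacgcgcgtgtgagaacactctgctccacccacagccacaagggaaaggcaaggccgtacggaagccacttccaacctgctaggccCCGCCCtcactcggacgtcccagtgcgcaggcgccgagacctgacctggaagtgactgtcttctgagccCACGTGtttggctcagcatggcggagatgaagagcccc
Gm10801: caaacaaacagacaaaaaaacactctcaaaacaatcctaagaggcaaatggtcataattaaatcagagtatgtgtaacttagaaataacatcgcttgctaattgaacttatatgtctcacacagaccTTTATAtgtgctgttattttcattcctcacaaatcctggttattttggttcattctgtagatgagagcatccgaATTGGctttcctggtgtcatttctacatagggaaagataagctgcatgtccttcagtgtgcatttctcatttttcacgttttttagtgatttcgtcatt

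The H3K4me3 list held 787308 reads in peaks, and the totals of the libraries are not given in the lists. The lists of KHcy and H3K79Hcy held 7300 and 7387 peaks, which covered 15.2 Mb and 8.76 Mb. The background solved from the caller's scores was 1.38 reads per window of 200 bp for H3K4me3, 1.49 for KHcy and 1.59 for H3K79Hcy. The markers of the cell line were sparsely covered. Of 15 neural stem cell markers in the annotation only Nes, the intermediate filament nestin, had its start in a start peak, with 60 reads or 3.75 reads per 200 bp. For Sox2 a peak lay within 2000 bp downstream of the start, and for Vim, Msi1 and Msi2 upstream of it. None of 6 neuron, 4 astrocyte, 5 oligodendrocyte or 5 blood and microglia markers had a start in such a peak. Neither did any of 16 housekeeping genes, of which 5 (Gapdh, Tbp, Polr2a, Ppia and Tuba1b) had a peak within 2000 bp. Of 5 pluripotent markers only Dppa3 had a start peak (44 reads, 4 per 200 bp). For Pou5f1 (20 reads, 5 per 200 bp) and Tdgf1 (38 reads, 4.22) a peak lay within 2000 bp downstream of the start. Nanog and Zfp42 had none within that distance. Of 3 endothelium markers only Kdr, a receptor, had a start peak (45 reads, 3.21 per 200 bp). None of 4 liver and muscle markers had a start peak.

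Of the 22380 protein-coding genes in the annotation, 1104 began inside a start peak (4.93%, 4.66 to 5.22%). Counting peaks of any length, 1211 starts were covered (5.41%). The start peaks had a median length of 2000 bp (quartiles 1600 and 2400 bp) and held a median of 34 reads (quartiles 28 and 44, range 17 to 908). The median density was 3.56 reads per 200 bp (95% interval 3.50 to 3.60, quartiles 3.2 and 4), which is 2.57 times the background. It differed by less than this interval from the median of the 17182 H3K4me3 peaks under 4000 bp that contained no gene start, which was 3.57 reads per 200 bp (3.56 to 3.57). Those other peaks were shorter, with a median of 1800 bp and 30 reads. The 95 peaks of 4000 bp or more that contained a start had a median of 3.82 reads per 200 bp.

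Start peaks and other peaks differed in their DNA. The median ratio of observed to expected CpG was 0.546 in the start peaks (0.530 to 0.559) and 0.182 in the other peaks, and the median GC content was 51.9% against 44.7%. Of the start peaks 76 (7.52%) lay over repeated sequence, taken as more than 10% of their words of 31 bases occurring more than once in the genome, against 22.9% of the other peaks. A neighbouring H3K4me3 peak within 2000 bp was found for 216 start peaks (21.4%, 19.0 to 24.0%) and for 31.7% of the other peaks (31.01 to 32.4%).

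**Figure D1:**
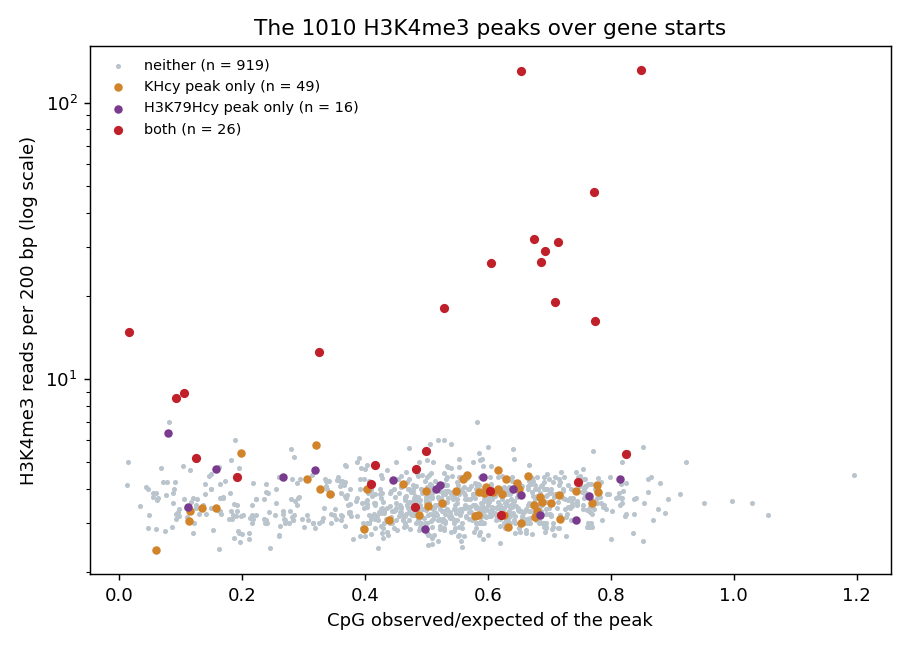
Each point is 1 of the 1010 start peaks, with the observed over expected CpG of the peak on the horizontal axis and H3K4me3 reads per 200 bp on the logarithmic vertical axis, coloured by overlap with a KHcy peak, an H3K79Hcy peak, both or neither. Most points lie near the median of 3.56 reads per 200 bp, and all 15 points above 8 reads per 200 bp are overlapped by both.

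The peaks tended to lie downstream of the annotated start they covered. That start is the outermost 5′ end of the gene, so any other transcript start of the gene lies downstream of it. How much of the asymmetry, here and around all gene starts, comes from this was not tested. In the 918 start peaks with 1 start, the peak reached a median of 755.5 bp upstream (quartiles 383 and 1222 bp) and 1170 bp downstream (quartiles 672 and 1652 bp). The longer arm pointed into the gene in 589 of them (64.2%, 61.0 to 67.2%). With the peak cut into 3 equal parts along the direction of the gene, the start lay in the first part in 398 (43.4%), in the middle part in 319 (34.7%) and in the last part in 201 (21.9%). One-sided peaks were a minority, since 125 (13.6%) reached less than 200 bp upstream and 74 (8.06%) less than 200 bp downstream. Mybbp1a gives the first kind, where the peak at chr11:72254801-72256000 held 36 reads and began 56 bp before the start. Nop14, a nucleolar protein of small ribosomal subunit assembly, gives a peak at chr5:35001601-35002800 (26 reads) whose start lies at its upstream edge. Kcnq5, a potassium channel, gives the opposite kind, where the peak at chr1:21952001-21952800 (24 reads) ended 22 bp into the gene.

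The same asymmetry held around all gene starts. At the start itself 5.41% of genes lay in an H3K4me3 peak of any length, and the share dipped to 5.22% (1169 genes) at 100 bp upstream. It reached 5.75% (1286 genes) at 400 bp upstream and 9.56% (2139 genes) at 900 bp downstream, and it was 2.21% at 5000 bp upstream. The GC content of the genome, averaged over the same genes, was highest, at 59.4%, 50 bp downstream of the start, close to the dip. The part of GC content in the dip was not tested. The share in a KHcy peak was highest at 1.05%, 400 bp downstream, and the share in an H3K79Hcy peak stayed at or below 0.433% at every position from the start to 5 kb downstream.

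**Figure D2:**
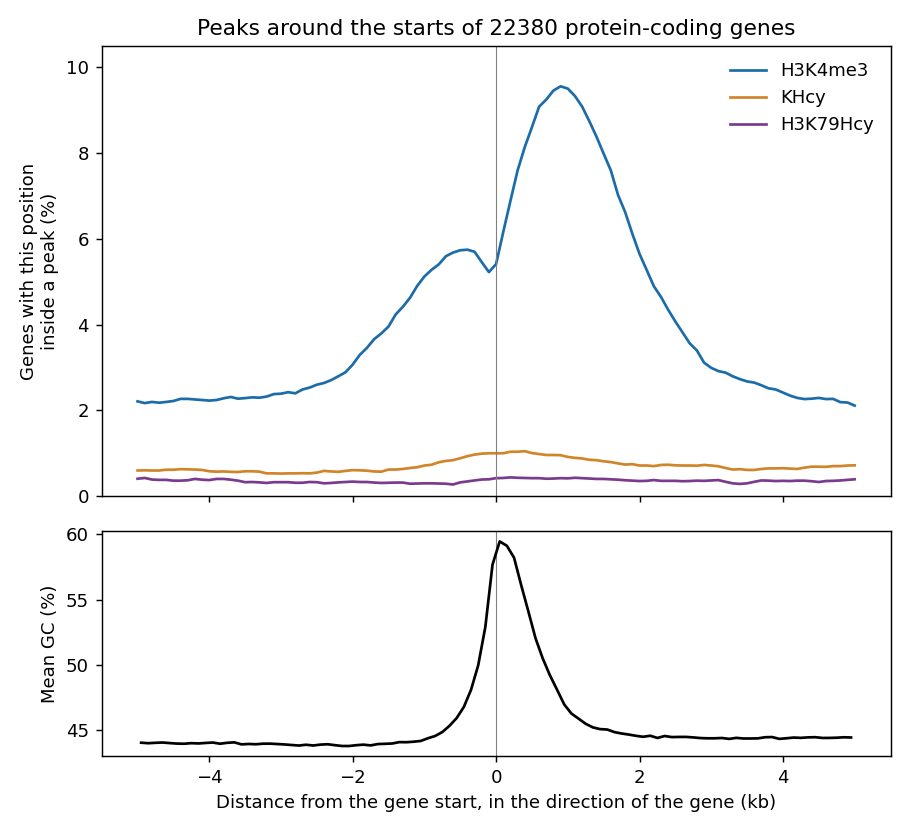
The upper panel gives the percentage of 22380 genes for which a position at the stated distance from the start, in kb in the direction of the gene, lies inside a peak of each library, and the lower panel gives mean GC content in percent. H3K4me3 has a higher maximum downstream (9.56%) than upstream (5.75%) with a dip between them, while GC is highest near the start.

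Most genes with an H3K4me3 peak within 2000 bp of the start did not have one on the start itself. A window of 2000 bp on each side can meet more peaks than a single position. Away from starts, single positions 20 kb upstream and 20 kb downstream lay in an H3K4me3 peak for 2.24% and 1.97% of genes. The share of such windows that hold a peak away from starts was not computed. Of the 3441 genes with an H3K4me3 peak within 2000 bp of the start, 1104 (32.1%) had a start peak and 107 (3.11%) a peak of 4000 bp or more on the start. In 1418 (41.2%) the peak lay downstream only, in 570 (16.6%) upstream only and in 242 (7.03%) on both sides with the start left out. The 1000 bp around the start had a median observed over expected CpG of 0.701 for genes in start peaks. It was 0.785 for genes with a downstream peak only, 0.797 for those flanked on both sides and 0.475 for genes with none.

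When all genes were divided into quartiles of this ratio, 1.81% of the 5595 genes of the lowest quartile had a start peak, 3.27% of the second, 8.24% of the third (7.55 to 8.99%) and 6.42% of the highest (5.80 to 7.09%). A peak within 2000 bp but not on the start was found for 3.06%, 4.90%, 11.4% and 20.5%. The share with any peak within 2000 bp rose through all 4 quartiles, from 5.18% to 27.5%, whereas the share covered at the start was lower in the highest quartile than in the third. In the highest quartile coverage was 6.93% at the start and 18.2% at 1000 bp downstream, a ratio of 2.62. In the third quartile it was 8.99% at the start and 13.6% at 600 bp downstream, a ratio of 1.51.

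**Figure D3:**
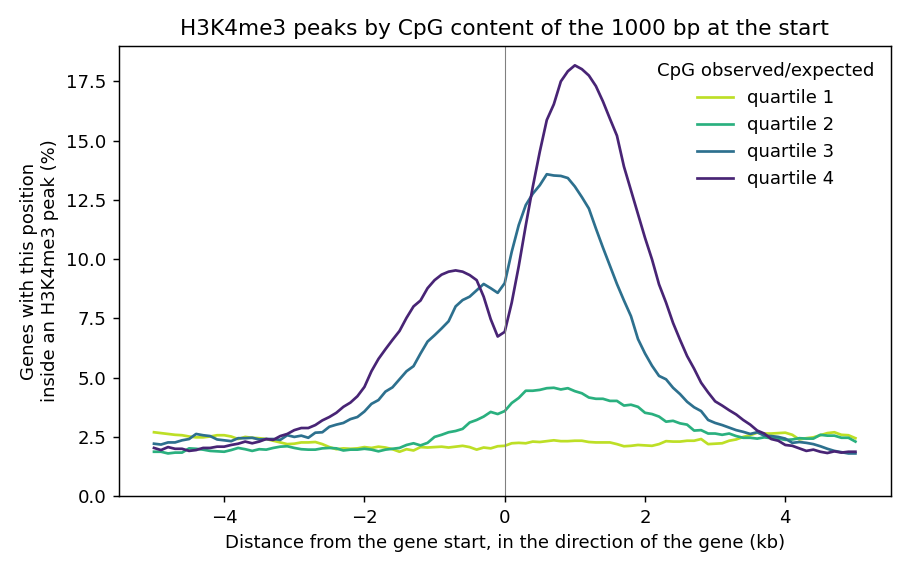
Percentage of genes for which a position at the stated distance from the start, in kb in the direction of the gene, lies inside an H3K4me3 peak, for quartiles of 5595 genes by observed over expected CpG of the 1000 bp around the start. The dip at the start is deepest in quartile 4, from 18.2% downstream to 6.93% at the start, and quartile 1 is nearly flat.

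Promoters with a pair of genes made up most of the start peaks with several starts. The number of gene starts in a start peak was 1 in 918, 2 in 90 and 3 in 2, so that 92 (9.11%, 7.49 to 11.04%) held at least 2. In 60 of the 92 peaks (65.2%) the genes ran away from each other, with a median of 69.5 bp between the starts (5 to 1756 bp). In 27 (29.3%) they ran towards each other, so that their 5′ ends overlapped, with a median of 369 bp between the starts. In 3 the starts were those of 1 gene symbol with 2 entries in the annotation (Jmjd1c, Dyx1c1 and Gsx2), so that 89 start peaks (8.81%) held the starts of different genes. The read density was 3.56 per 200 bp both in peaks with 1 start and in peaks with several, and the median observed over expected CpG was 0.535 and 0.625.

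The divergent start peak with the highest density was that of Aurka and Cstf1 at chr2:172195401-172198400, with 66 reads or 4.4 per 200 bp and 146 bp between the starts. Next came Tmem111 and Fancd2, of the Fanconi anaemia pathway of DNA repair (39 reads, 4.33 per 200 bp, 44 bp apart) and Cks1b and Shc1 (42 reads, 4.2 per 200 bp, 60 bp apart), a regulatory subunit of cyclin-dependent kinases and a signalling adaptor. The peak of 1110059G10Rik and Kif15, a mitotic kinesin, and that of Sdhd and Timm8b each held 46 reads, or 4.18 per 200 bp. The last of the 6, E430025E21Rik and Nsmce2, a SUMO ligase of the SMC5/6 complex, held 33 reads (4.13 per 200 bp). None of these 6 peaks was overlapped by a KHcy or H3K79Hcy peak. The 3 starts of BC013529, 6530403G13Rik and Ppil4 shared a peak of 1000 bp with 21 reads, and those of 2610024G14Rik, Polr2b and AC141469.5 a peak with 29 reads. Polr2b is the second largest subunit of RNA polymerase II. Sap30bp and Recql5, a DNA helicase, ran towards each other in a peak of 72 reads.

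The annotation held 792 divergent pairs with under 1000 bp between the starts. Both starts lay in 1 start peak in 61 of them (7.70%, 6.04 to 9.77%), 1 start only was covered in 23 (2.90%) and none in 702 (88.6%). Of the 1584 genes in such pairs 9.15% had a start peak, against 4.61% of the other genes. The gap was unequal between the quartiles of CpG described above. In the third quartile the shares were 8.74% for paired and 8.18% for other genes, and in the highest 9.95% and 5.81%.

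Start peaks were found in lists of genes to very different extents, and each share is to be read against 4.93% of all genes. It is also to be read against the share away from starts. Positions 20 kb upstream and 20 kb downstream of the start lay in an H3K4me3 peak under 4000 bp for 1.93% and 1.66% of all genes. Among the lists of at least 15 genes the highest share was that of homeobox genes, transcription factors that set body axes and neural regions, with 29 of 185 annotated entries (15.7%, 11.1 to 21.6%). Another 24 had their start in a peak of 4000 bp or more, and 42 had a peak within 2000 bp. Hoxc6 had 45 reads (5 per 200 bp), Hoxb3 28 (4.67), Dbx1, of ventral spinal cord progenitors, 22 (4.4), and Lhx6, of cortical interneurons, 57 (4.38). Also in start peaks were Otx2 (35 reads), Pax2 (47), Pax3 (52) and Mnx1 (47), chosen after their values were seen. The length limit divides the Hox genes. Hoxd13 (3800 bp, 76 reads, 4 per 200 bp) lay just inside it, and the peak of 4000 bp over Hoxb8 and Hoxb7 (80 reads, 4 per 200 bp) lay just outside. Of genes outside the Hox clusters, Hlx (3800 bp, 77 reads, 4.05) lay just inside the limit and the peak of 4000 bp over Gsx1 (81 reads, 4.05) just outside. The other peaks nearest the limit were 2810474O19Rik inside (89 reads, 4.68) and Gm16387 outside (87 reads, 4.35).

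Among the lists of at least 15 genes, the mitochondrial and the splicing lists had the next highest shares. The mitochondrial ribosome and respiratory chain had 21 of 171 (12.3%, 8.17 to 18.04%), with Mrpl49 at 43 reads (4.3 per 200 bp), Atp5l, of ATP synthase, at 45 (4.09) and Ndufa9, of complex I, at 39 (3.9). Splicing and RNA-binding proteins had 20 of 164 (12.2%, 8.03 to 18.1%), with Ddx47 at 29 reads (5.8 per 200 bp) and Rbm8a, of the exon junction complex, at 53 (4.08). Cell cycle and replication genes had 10 of 115, among them Cdk1, the mitotic kinase, with 40 reads (4.44 per 200 bp). Cytosolic ribosomal proteins had 6 of 81, with Rpl32 at 29 reads (4.14 per 200 bp), and the proteasome had 4 of 50, with Psmd4, a ubiquitin receptor, at 28 reads (5.6 per 200 bp). For these 3 lists the intervals included 4.93%.

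SOX, FOX, bHLH and other developmental transcription factors had 11 of 177 (6.21%), led by Sox17, of endoderm, with 80 reads (4.71 per 200 bp). Neurog2, a proneural factor, had 46 reads (4.18) and Eomes, of intermediate progenitors, 62 (4.13). Wnt, FGF, BMP, hedgehog and Notch genes had 8 of 139 (5.76%), with Bmpr2 at 41 reads (5.13 per 200 bp) and Lfng, which modifies Notch, at 42 (4.67). Ion channels and neurotransmitter receptors had 15 of 250 (6%). The intervals of these 3 lists included 4.93%. Lower shares were seen for zinc finger proteins (13 of 365), predicted genes (128 of 3689), histone genes (2 of 79) and keratins (2 of 92), and of these 4 intervals only that of predicted genes (2.93 to 4.11%) left out 4.93%. Olfactory receptors had 21 of 1087 (1.93%, 1.27 to 2.94%) and vomeronasal receptors 4 of 320 (1.25%, 0.487 to 3.17%). The intervals of both receptor lists included the shares at 20 kb from the start, 1.93% and 1.66%. The clustered protocadherins had 0 of 24, with an interval up to 13.8%. The peak of Olfr398 held 68 reads (4.86 per 200 bp) at a CpG ratio of 0.105, which put it above the third quartile of density of all start peaks.

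**Figure D4:**
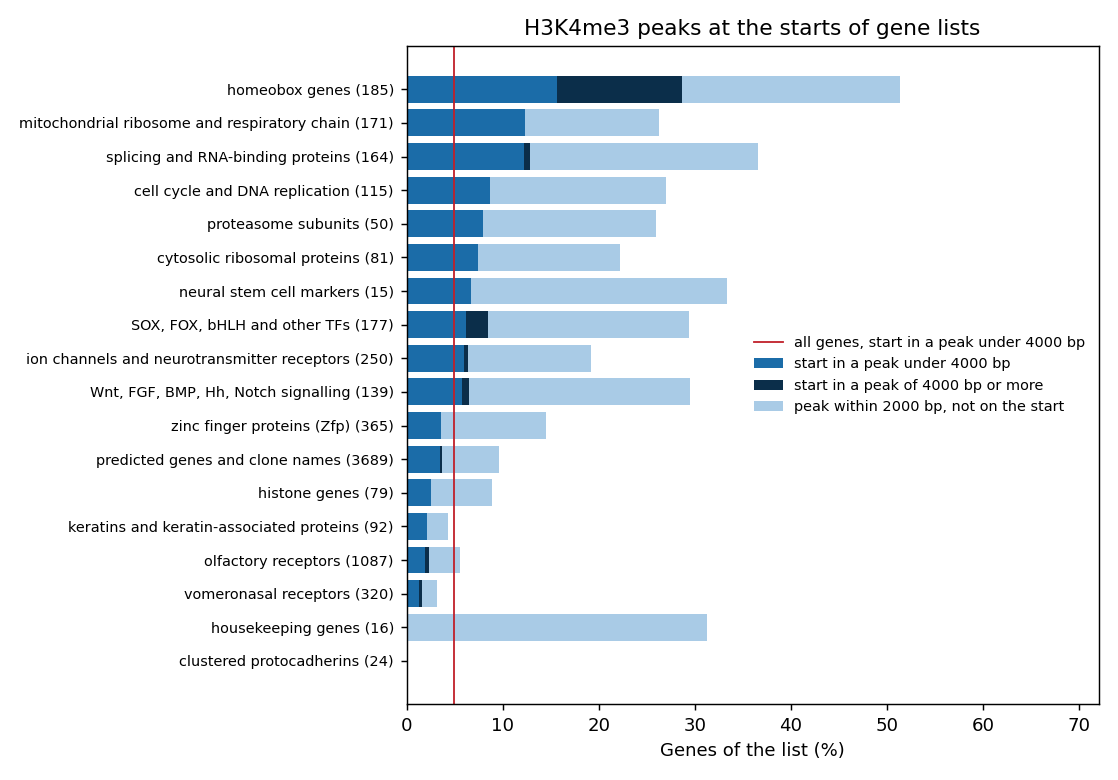
Horizontal bars give the percentage of genes of each list of at least 15 genes, with the number of annotated genes in brackets, whose start lay in an H3K4me3 peak under 4000 bp, in a peak of 4000 bp or more, or within 2000 bp of a peak, and the red line gives the share of all genes in a peak under 4000 bp. Of the lists plotted, homeobox genes have the highest share, 15.7%, with another 24 genes in wide peaks, while housekeeping genes have peaks beside the start only.

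Short promoter motifs were searched on both strands of the 300 bases described for the printed sequences, in the 1104 genes of start peaks and in all 22380 genes. The GC box GGGCGG was present in 53.9% of the genes in start peaks, in 64.3% of the 2230 genes with a peak beside the start only and in 43.4% of all genes. The ETS motif CCGGAAGT was present in 9.15% (7.59 to 10.99%), 6.41% and 4.69%, and is seen in the printed Aurka and Ddx47 sequences. The part of the NRF1 motif GCATGCGC was present in 4.801%, 4.08% and 3.30%, and the part of the YY1 motif AAGATGGC in 4.62%, 4.66% and 3.29%. The E box CACGTG was present in 9.78%, 11.1% and 7.78%. The cAMP response element TGACGTCA was present in 3.17%, 3.81% and 2.32%, and TCTCGCGA in 1.99%, 2.42% and 1.35%. Against these, CCAAT was present in 33.4%, 39.8% and 37.9%, and the TATA box TATAAA in 9.33%, 7.71% and 13.4%. Of the 9 motifs ETS thus had the largest ratio between genes of start peaks and all genes. These matches are descriptions of the sequence only.

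KHcy and H3K79Hcy peaks were present at few start peaks. With an overlap of at least 1 bp, a KHcy peak overlapped 75 start peaks (7.43%, 5.97 to 9.21%), against 5.28% of the other H3K4me3 peaks under 4000 bp. An H3K79Hcy peak overlapped 42 (4.16%, 3.09 to 5.57%), against 4.52%. Both overlapped 26 (2.57%, 1.76 to 3.75%), against 1.83%, and 919 start peaks (91.0%) were overlapped by neither. These shares are not adjusted for peak length, whose median was 2000 bp in start peaks and 1800 bp in the other peaks. Nor are they adjusted for the longer stretch of the genome covered by the KHcy list than by the H3K79Hcy list. Of the peaks with several starts 6 of 92 had a KHcy peak and 1 an H3K79Hcy peak. Start peaks of 4000 bp or more had KHcy in 29 of 95 (30.5%) and H3K79Hcy in 19 (20%), over a longer stretch.

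Most of the joint overlap lay over repeated sequence. The 76 start peaks over repeated sequence included 18 with a KHcy peak, 18 with an H3K79Hcy peak and 16 of the 26 with both. Without them, 57 of 934 (6.10%, 4.74 to 7.83%) had KHcy, 24 (2.57%, 1.73 to 3.80%) H3K79Hcy and 10 both (1.07%), against 4.25%, 3.17% and 0.808% of the other peaks of the same kind. The 3 start peaks of highest density were all of this repeated kind. Gm10801, where 59.2% of words were repeated, had 657 reads or 131 per 200 bp in H3K4me3, 133 per 200 bp in H3K79Hcy and 110 in KHcy. Gm10800 had 130, 128 and 129 per 200 bp in the same order. Gm10722 had 47.3, 43.8 and 43.2 per 200 bp, and is 1 of 9 start peaks before 3.1 Mb of chromosome 9, all with both other marks and with 16.3 to 47.3 H3K4me3 reads per 200 bp. Of the 15 start peaks above 8 reads per 200 bp, all had both other marks and 14 lay over repeated sequence. The exception was 4931408C20Rik, with 192 reads or 14.8 per 200 bp in H3K4me3, 18.9 in H3K79Hcy and 13.9 in KHcy, named after its values were seen. Whether reads of repeated copies raised these values was not tested.

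Among start peaks outside repeats with both marks, Sox17 (chr1:4485401-4488800) had 80 H3K4me3 reads, 22 H3K79Hcy reads and 52 KHcy reads, or 4.71, 4.4 and 3.25 per 200 bp. Hist4h4, a gene of histone H4, had 32, 28 and 32 reads, or 5.33, 5.6 and 6.4 per 200 bp. Foxb2, a forkhead factor, had 55 H3K4me3 and 26 H3K79Hcy reads. It was overlapped by 2 KHcy peaks, of which the first by position held 31 reads and did not contain the gene start. The other KHcy peak contained the gene start, and the H3K79Hcy peak did not. Reads of KHcy and H3K79Hcy are those of their whole peaks, which can reach beyond the start peak. The medians of the 10 start peaks outside repeats with both marks were 4.32 per 200 bp in H3K4me3, 4.41 in H3K79Hcy and 3.47 in KHcy. Densities of the 3 libraries are not scaled to their backgrounds, which were 1.38, 1.59 and 1.49 reads per 200 bp in the same order. Their order between libraries is therefore not interpreted. Where several peaks of a mark overlapped a start peak, the first by position was taken. Of the 3 start peaks overlapped by H3K79Hcy alone with the highest H3K79Hcy density, only Speer4e (19 reads, 6.33 per 200 bp), which lies over repeated sequence, had its gene start covered. The H3K79Hcy peak at Rasl11b (18 reads, 6) lay elsewhere in the start peak. At Col19a1, a collagen, the H3K79Hcy peak (22 reads, 5.5, chr1:24591601-24592400) lay mostly outside the start peak (chr1:24592201-24595400) and overlapped only its edge. Of the 3 overlapped by KHcy alone with the highest KHcy density, the KHcy peak covered the gene start at Efnb3, an ephrin ligand (25 reads, 5 per 200 bp), and Nop14 (24 reads, 4.8). At Eya1, a phosphatase and transcriptional co-activator (22 reads, 5.5), it did not reach the gene start.

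Counted by genes, 62 of the 1104 starts in start peaks were covered by KHcy (5.62%) and 30 by H3K79Hcy (2.72%). Starts outside any H3K4me3 peak did so in 0.676% and 0.255%. Within 5 Mb stretches holding at least 10 KHcy peaks, the shares were 6.20% and 2.94% for starts in start peaks and 1.38% and 0.501% for uncovered starts. Without start peaks over repeated sequence they were 4.58% and 1.17% for starts in start peaks. No matching share is given for uncovered starts, whose values above include repeated sequence.

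The start peaks were unevenly spread over the chromosomes. Chromosome 19 had 94 of 724 genes in a start peak (13.0%, 10.7 to 15.6%) and chromosome 11 had 172 of 1653 (10.4%, 9.02 to 11.97%). Chromosome 7 had 21 of 2072 (1.01%), chromosome 13 had 0.462%, and the X chromosome had 1 of 932 (0.107%). That gene was Mageh1 (62 reads, 5.64 per 200 bp). Chromosomes 11, 5, 2 and 9 held 467 of the start peaks (46.2%) and 27.1% of the genes. The share of genes whose position 20 kb from the start lay in an H3K4me3 peak followed the same order, with a Spearman rho of 0.91 over 20 chromosomes, which share 1 library. Genes in 5 Mb stretches with at least 10 KHcy peaks had a start peak in 9.11% of cases (951 of 10438) and the others in 1.28% (153 of 11942). Coverage of gene starts thus moved with the density of H3K4me3 and of KHcy peaks along the genome, and the part of this density in the shares of the gene lists was not tested.

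**Figure D5:**
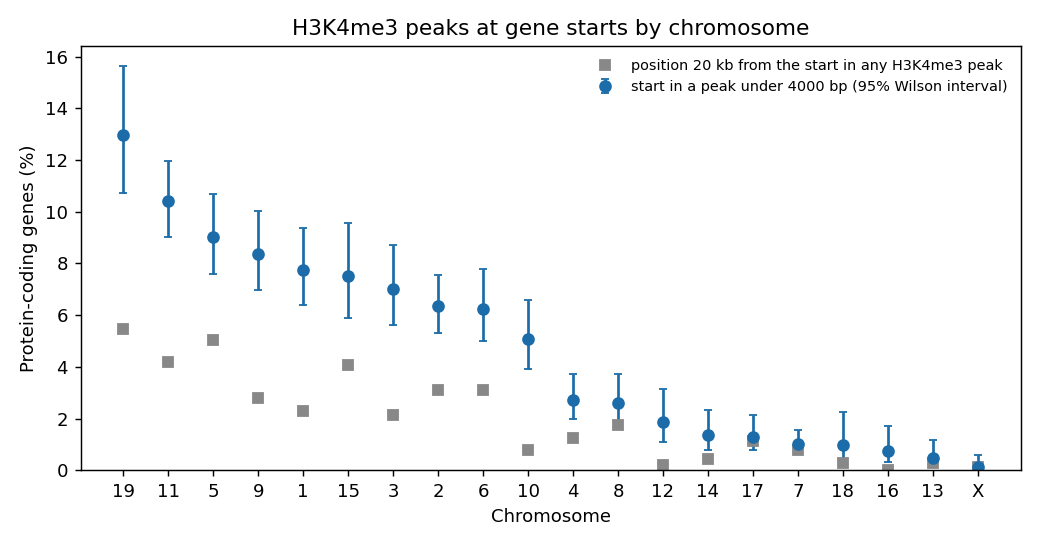
Circles give the percentage of protein-coding genes of each chromosome with the start in an H3K4me3 peak under 4000 bp, with 95% Wilson intervals, and squares the percentage whose position 20 kb from the start lies in any H3K4me3 peak. Chromosomes are ordered by the circles, from 13.0% on chromosome 19 to 0.107% on X.

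The remaining start peaks of highest density over named genes were Ccdc17 (29 reads, 5.8 per 200 bp), Brpf1, a scaffold of histone acetyltransferases (51 reads, 5.67), Ccdc134 (17 reads, 5.67) and Clcn4-2, a chloride transporter (22 reads, 5.5, with 28.8% repeated words). At the other end, Phc1, a Polycomb protein, had 27 reads (2.45 per 200 bp), Gpr21 29 (2.42) and Gm11428 24 (2.4). A density over 5 times the background was reached by 17 of the 1010 start peaks (1.68%), against 1.26% of the other peaks.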

How the data were processed

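ChIP-seq peak lists of NE4C cells were analysed, with 1 library for each of 3 antibodies. According to the methods, the authors used Bowtie 2 for alignment to mm9 and MACS (version 1.4.2 in the submitters' processing notes) for peak calling, with filtering against input, whereas a figure legend of the study names SICER. Each deposited list gives the position and length of a peak, the count of reads in it, which the authors did not scale for depth or length, and a score. In peaks that span a single window, the score deposited by the authors is −ln of the Poisson probability of the reads, and the background of each library was solved from it. No false discovery rate or control column with values is in the lists, so the stricter list kept peaks whose score exceeded the lowest by the natural log of 100.

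Positions are in mm9, counted from 1. Gene starts were those of GENCODE M1 (gene start on the plus strand, gene end on the minus strand), and sequence was read from the NCBIM37 genome, the same build. A word of 31 bases was called repeated if it occurred more than once in the genome on either strand. Overlap required at least 1 bp. Shares have 95% Wilson intervals and medians have 95% order-statistic intervals. No p-value was computed. The start peaks and gene lists were chosen with earlier results of these data known. Genes were named by rule, namely the 10 densest start peaks of named genes, the 3 densest and 3 sparsest of any name, the 6 densest divergent peaks, the densest peaks by overlap with the other marks, 3 on either side of the length limit, up to 4 of each gene list, all cell type markers, and the 3 peaks with most starts. Overlap counting, the background and the intervals were tested on simulated data. Python 3.11.15, numpy 2.4.6, pandas 2.3.3, scipy 1.17.1 and numba 0.67.0 were used. Input, IgG and the RNA-seq of the study are not analysed here. Items withheld from the text are not reported here.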

Additional observations from a re-analysis of the deposited data

How the results depend on the processing

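Of 57 alternative values for the 7 main results, 37 stayed within the 95% interval of the reported value (for the number of start peaks, within 1.5 times) and 20 moved. The number of start peaks and the share with several starts moved under none of the alternatives run. Within its wider tolerance, the number ranged from 708 with the stricter score to 1492 with peaks within 200 bp of the start. The share of gene starts in a start peak was 5.41% with no limit on length, 3.50% with the stricter score, 6.47% with the start of any protein-coding transcript, 7.35% with peaks within 200 bp of the start and 4.59% without start peaks over repeated sequence. That last alternative was chosen after seeing the data, except for the read density. The median density was 3.67 reads per 200 bp both with the stricter score and within 200 bp of the start. It is 2.57 when written as fold over background, which is a change of unit although it is counted among the 20. H3K79Hcy was present at 2.65% of start peaks of named genes, at 2.57% without repeated sequence, at 2.87% if it had to cover the gene start and at 2.77% if it had to cover 50% of the start peak. KHcy was present at 9.41% with no limit on length, 5.79% with the stricter score, 5.84% for named genes, 5.74% if it had to cover the start and 5.35% if it had to cover 50% of the peak. The median observed over expected CpG was 0.528 with any transcript start, 0.530 within 200 bp of the start and 0.701 in the 1000 bp centred on the start, which is a narrower window than most peaks. Leaving out chromosome 5 moved none of the 7.

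No paired analysis was possible because each antibody has 1 library, and for the same reason no replicate was left out. Library totals and input are not in the lists, so that a gene start without a peak cannot be told apart from one below the depth needed.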

Other observations

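The start peaks passed the stricter score in 708 of 1010 cases (70.1%, 67.2 to 72.8%), against 55.95% of the other H3K4me3 peaks under 4000 bp, although the median densities were 3.56 and 3.57 reads per 200 bp. Start peaks were longer, with a median of 2000 against 1800 bp.

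Coverage at 1000 bp downstream of the start differed between chromosomes like coverage of the start. On chromosome 19, 24.9% of genes were in an H3K4me3 peak at that position, against 13.95% at the start and 5.46% at 20 kb, and on chromosome 11 the shares were 19.6%, 11.3% and 4.204%.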
